A study of Homo sapiens with 18 samples.

Results

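The cornified envelope and squamous differentiation genes are 36 named genes whose products build, crosslink or process the protein and lipid shell of squamous keratinocytes. They are 36 of the 42141 genes in the deposited tables, picked out by gene name, with keratins, S100 proteins, kallikreins and desmosome genes left out. The list was drawn up with earlier results of these data known. RNA-seq was made from acini, the hollow spheres that MCF-10A.B2 cells form on basement membrane gel. MCF-10A is an immortalised, non-tumorigenic human mammary epithelial line, and B2 cells carry a chimeric HER2 receptor that the synthetic B/B homodimerizer switches on without ligand. Acini grew for 7 days on growth-factor-reduced Matrigel in medium with donor horse serum, insulin, cholera toxin and hydrocortisone, and were then treated for 14 days, 21 days in all. From day 7 EGF was withdrawn in every group and replaced by the agent of that group. The 6 groups of 3 libraries were JNKKO acini (JNK knockout) given the dimerizer with TGF-β1 (BBTGF), JNKKO acini given the dimerizer alone (BB), JNKKO acini given ethanol (control), and wild-type (WT) acini given the same BBTGF, BB and control treatments. The sources used here do not name the edited JNK gene, do not say whether JNKKO is 1 clone or a pool, and do not say whether replicate libraries are separate cultures. The p-values therefore measure the spread between libraries, which may be technical. The third WT BBTGF library carries a title of WT and a genotype tag of JNK knockout, and it was grouped by its title.

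During terminal differentiation squamous cells assemble a cornified envelope under the plasma membrane. Transglutaminases crosslink involucrin, small proline-rich (SPRR) proteins, late cornified envelope (LCE) proteins and loricrin onto a scaffold of envoplakin and periplakin, while filaggrin-family proteins bundle and fill the cell and lipoxygenases and lipid transporters supply the lipid coat. Many of these genes lie together in the epidermal differentiation complex on chromosome 1, which here held 15 of the 36 members. Mammary epithelium in the body is not cornified, but cultured mammary epithelial lines transcribe part of this programme. JNK phosphorylates the JUN subunit of AP-1, the transcription factor that binds TGAGTCA and has known roles at the involucrin and SPRR promoters.

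Promoter windows of 4 members are shown because they carry the contrast the results below return to: IVL, SPRR1B and CASP14 hold the AP-1 motif TGAGTCA and were higher in JNKKO than in WT BBTGF acini, and FLG does not hold it and was lower. The FLG window does hold the wider form TGANTCA, beginning 79 bases before the start and not capitalised. They were picked after both the motif hits and the expression values were seen. Each runs 5′ to 3′ on the gene's own strand from 250 bases before to 50 after the RefSeq transcript start (GRCh38.p14), and capitals mark TGAGTCA on either strand (read as TGACTCA on the other).
IVL: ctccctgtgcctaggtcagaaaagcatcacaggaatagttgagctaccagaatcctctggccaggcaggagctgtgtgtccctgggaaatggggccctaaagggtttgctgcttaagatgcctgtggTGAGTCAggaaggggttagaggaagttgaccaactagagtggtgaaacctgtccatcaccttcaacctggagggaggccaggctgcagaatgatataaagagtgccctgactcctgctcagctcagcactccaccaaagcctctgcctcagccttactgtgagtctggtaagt
SPRR1B: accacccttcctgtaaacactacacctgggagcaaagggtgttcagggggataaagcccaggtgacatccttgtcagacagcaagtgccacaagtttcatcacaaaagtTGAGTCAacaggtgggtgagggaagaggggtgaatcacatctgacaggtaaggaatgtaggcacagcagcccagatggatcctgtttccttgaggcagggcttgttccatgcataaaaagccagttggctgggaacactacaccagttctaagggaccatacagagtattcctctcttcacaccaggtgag
CASP14: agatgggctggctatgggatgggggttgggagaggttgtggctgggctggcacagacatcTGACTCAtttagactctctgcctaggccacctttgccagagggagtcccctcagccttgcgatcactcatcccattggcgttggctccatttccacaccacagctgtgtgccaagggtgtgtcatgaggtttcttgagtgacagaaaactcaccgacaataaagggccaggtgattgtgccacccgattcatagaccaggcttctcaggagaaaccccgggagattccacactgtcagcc
FLG: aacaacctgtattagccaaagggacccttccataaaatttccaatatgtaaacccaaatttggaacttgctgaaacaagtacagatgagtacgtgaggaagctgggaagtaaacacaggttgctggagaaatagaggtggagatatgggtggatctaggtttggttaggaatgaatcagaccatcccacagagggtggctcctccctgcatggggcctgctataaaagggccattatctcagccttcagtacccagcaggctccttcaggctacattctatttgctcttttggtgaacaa
The windows lie at chr1:152908296-152908595 on the plus strand (IVL), chr1:153030953-153031252 on the plus strand (SPRR1B), chr19:15049230-15049529 on the plus strand (CASP14) and chr1:152325190-152325489 on the minus strand (FLG). In them the motif began 123 bases before the start of IVL, 141 bases before that of SPRR1B and 190 bases before that of CASP14. RefSeq windows were held for 32 of the 36 members, LOR among them through a synonym, and SPRR2D, TGM1, EVPL and PPL had none. TGAGTCA was present in 12 of 32 member genes (37.5%), against 6.05% of 27305 genes with windows of the same length. Those 12 were IVL, SPRR1A, SPRR1B, SPRR2A, SPRR2F, SPRR3 and LOR on chromosome 1 and CASP14, KRTDAP, SBSN, DMKN and SCEL elsewhere. The 6 motifs searched, each on both strands, gave other shares. TGANTCA, which takes in TGAGTCA, was in 16 member genes (50%, against 9.37% of all genes), and GGTGTG was in 19 (59.4%, against 19.8%). CCGGAAGT was in 1 (3.12%, against 4.95%). TGACGTCA and AACCGGTT were in none of the 32, against 2.25% and 0.165% of all genes. The TGAGTCA form was chosen after the TGANTCA counts were known. A match is a description of letters in a window and no evidence of binding.

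**Figure D1:**
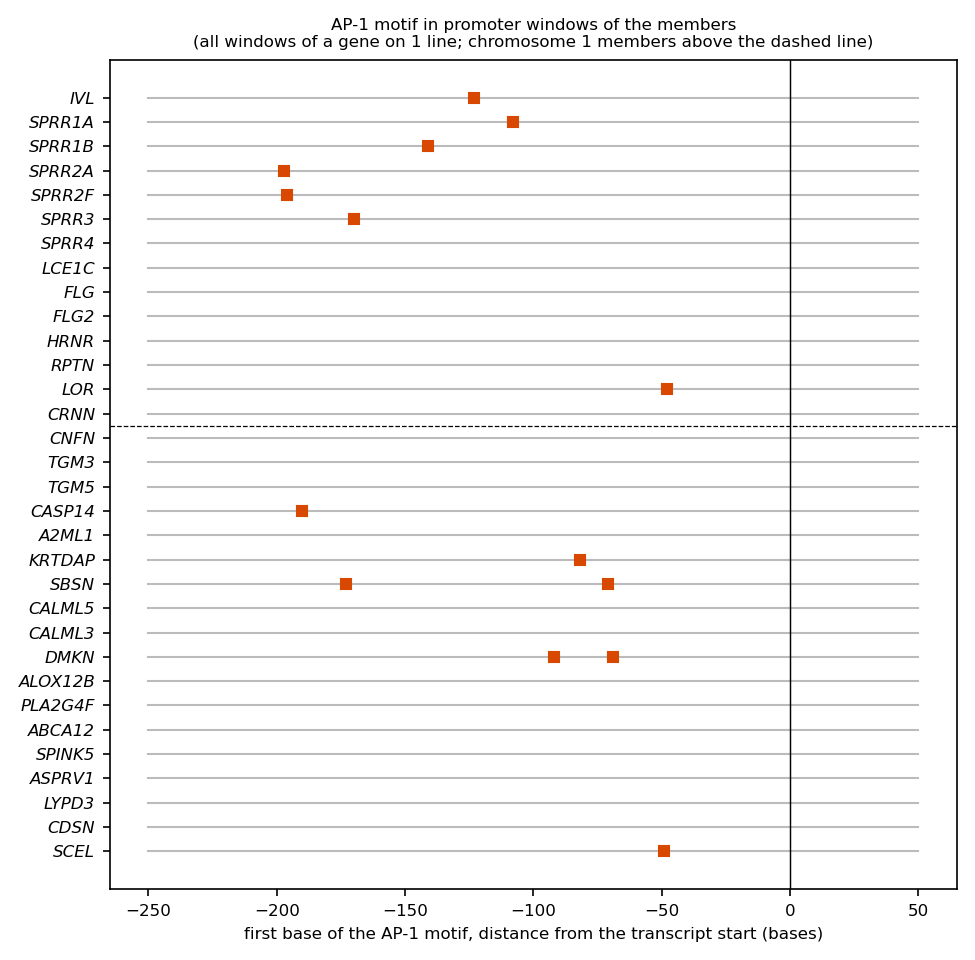
First base of TGAGTCA (either strand, orange squares) relative to the RefSeq transcript start, in bases, in the promoter windows of 32 members, with the members on chromosome 1 above the dashed line. 12 members hold the motif, each upstream of the start.

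The libraries held 24243537 to 34499651 expected counts. MAPK9, which encodes JNK2, ranged from 42.0 to 53.9 CPM (depth-scaled counts, with TMM factors) in the 9 JNKKO libraries, against 57.1 to 68.4 CPM in the 9 WT libraries, while MAPK8 and MAPK10 overlapped between genotypes. RNA level need not report an edit, since the edited site is not given. Mitochondrial genes took 5.38 ± 0.17% of counts in JNKKO BBTGF acini and 15.2 ± 0.13% in WT control acini (SD, n = 3 each), with group means of 8.90% to 10.8% in the other 4 groups, a shift that cannot be told apart from the treatment. The basal epithelial markers KRT5, KRT14, TP63, ITGB4 and LAMB3 summed to 9725 to 10801 CPM in WT control, the group with the lowest library, and the epithelial markers EPCAM, CDH1, KRT8, KRT18 and KRT19 to 329.9 to 337 CPM, with 1 of these 5 under 1 CPM in every group. Of the basal markers, KRT5 and TP63 were lower and ITGB4 and LAMB3 higher in BBTGF than in BB in both genotypes. KRT14 was higher in JNKKO, by a log2 of 1.12 (edgeR adjusted p = 1.19e-08), and lower in WT, at -0.94 (edgeR adjusted p = 6.70e-08). In BBTGF against BB, EPCAM was lower, at a log2 of -1.47 in JNKKO and -2.03 in WT, as was CDH1, at -1.03 and -0.37, while KRT8 was higher by 1.19 and 1.57 (edgeR adjusted p of at most 1.81e-05 for each). The part of these epithelial shifts was not tested. Mesenchymal markers (VIM, FN1, CDH2, ZEB1, ZEB2) summed to 16639.8 to 17827 CPM in JNKKO BBTGF, 1961 to 2274 in JNKKO BB, 1066 to 1096 in JNKKO control, 4859.7 to 6203 in WT BBTGF, 1035 to 1106 in WT BB and 623 to 705 in WT control, with none of the 5 under 1 CPM. Of these 5, 4 were higher and 0 lower in BBTGF than in BB in JNKKO, and 3 and 1 in WT. The 5 melanocyte and 5 endothelial markers summed to at most 3.12 and 44.8 CPM, the 5 immune markers to 40.2 to 45.8 CPM in JNKKO BBTGF, 43.7 to 49.1 in JNKKO BB and 11.5 to 13.2 in WT BB, and the 5 fibroblast markers to at most 122 CPM, in WT BBTGF. CD68 made up most of the immune sum, with 45.7 ± 3.06 CPM in JNKKO BB and 8.79 ± 0.442 in WT BB (SD, n = 3 each), whereas ITGAM had 1.27 ± 0.246 and 2.92 ± 0.710 CPM. The part of the mesenchymal markers and of the mitochondrial share in the differences described here was not tested, and in bulk RNA fewer squamous cells and less RNA per cell cannot be told apart. In 2 groups a single library stood apart in the members' summed TPM (a per-length scale). These were JNKKO control, at 589.9, 495 and 475 TPM, and WT control, at 273, 281 and 379.8 TPM, where the first JNKKO and the third WT library were the high ones.

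Of the 36 members, 30 passed the filter on low counts and were tested, and 18 of these reached a group mean of 5 CPM. SPRR2F, SPRR4, RPTN, LOR, CRNN and TGM3 had 0 to 8 counts in any library and were not tested. LOR, which encodes loricrin, a main envelope protein of epidermis, held at most 3 counts in a library. Per length, DMKN (85.5 ± 6.44 TPM; SD, n = 3), LYPD3 (48.6 ± 2.84) and CASP14 (39.9 ± 4.27) led in JNKKO BBTGF, whereas LYPD3 led in WT BBTGF at 122 ± 7.35 TPM. SPRR1B and DMKN led in JNKKO BB at 92.3 ± 5.55 and 75.1 ± 6.58 TPM, which differ by more than their SDs. DMKN and SPRR1B led in JNKKO control at 93.9 ± 8.94 and 89.9 ± 20.2 TPM, which do not. In WT BB the leading pair was DMKN (68.9 ± 0.808 TPM) and SPRR1B (64.4 ± 0.797 TPM), and in WT control PPL led at 80.0 ± 2.95 TPM. In CPM, which compares 1 gene between libraries, 12 of the 30 tested members had their highest group mean in JNKKO control and none their lowest, while 16 had their lowest in WT BBTGF and 8 in JNKKO BBTGF. Without overlap with another group, 8 were highest in JNKKO control, 7 lowest in WT BBTGF and 7 lowest in JNKKO BBTGF. In TPM, 12 were highest and 1 lowest in JNKKO control, and 13 lowest in WT BBTGF and 8 in JNKKO BBTGF. The shares over all tested genes were not counted for these group ranks. Whether the members differ from other genes in them was not tested.

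**Figure D2:**
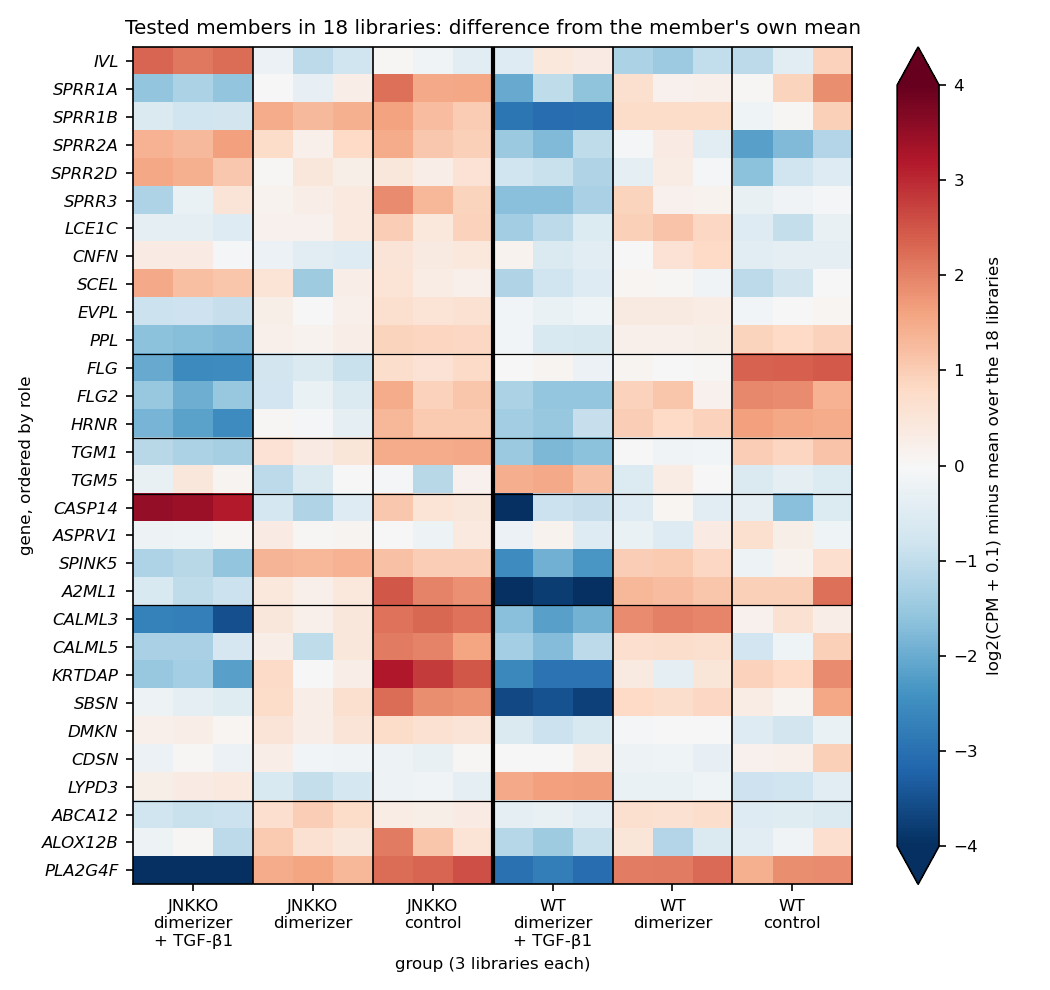
Each row is a tested member (30, grouped by role) and each column a library, with JNKKO groups left of the heavy line. Colour is log2(CPM + 0.1) minus the member's mean over the 18 libraries, so red is above and blue below that mean, and CASP14 and IVL are red in the 3 JNKKO BBTGF libraries.

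Among the scaffold and precursor proteins, involucrin was highest in JNKKO BBTGF acini. IVL had 18.6, 16 and 17.3 CPM in JNKKO BBTGF acini, 3.03, 1.69 and 2.03 CPM in JNKKO BB and 3.73, 3.28 and 2.68 CPM in JNKKO control. In WT, IVL had 2.48, 4.94 and 4.54 CPM in BBTGF, 1.46, 1.25 and 1.8 CPM in BB and 1.71, 2.65 and 6.88 CPM in control. Every JNKKO BBTGF library was above all 15 others. Differences here and below are log2 values fitted by edgeR on TMM-scaled counts, given ± SE with the p adjusted over 16911 genes, called at 0.05, and libraries left out in turn are named by group and replicate number. IVL, the glutamine-rich protein that transglutaminases crosslink early, differed between BBTGF and BB in JNKKO acini by a log2 2.97 ± 0.39 (edgeR adjusted p = 1.93e-05), and in WT acini by 1.39 ± 0.46 (edgeR adjusted p = 0.0182). The WT call was lost without WT BBTGF 2 or 3 or WT BB 2 (adjusted p of 0.0573 to 0.0656). SPRR1B had 7.25, 6.24 and 6.47 CPM in JNKKO BBTGF acini, 30.6, 26.7 and 29.7 CPM in JNKKO BB and 33.4, 26.1 and 22.2 CPM in JNKKO control. In WT, SPRR1B had 1.39, 1.23 and 1.27 CPM in BBTGF, 18.2, 18.4 and 18.1 CPM in BB and 9.71, 11.3 and 21.1 CPM in control. SPRR1B, a small proline-rich crosslinked precursor, was lowest in WT BBTGF, with no overlap with any other group. Its log2 difference between JNKKO and WT in BBTGF was 2.36 ± 0.40 (edgeR adjusted p = 2.23e-04).

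The lower-level precursors followed several patterns. SPRR2A ranged over 0 to 1.29 CPM across the 18 libraries, and SPRR2D over 0.413 to 4.52 CPM. In JNKKO acini both were higher in BBTGF than in BB, by a log2 0.97 ± 0.34 (edgeR adjusted p = 0.0163) for SPRR2A and 1.14 ± 0.21 (edgeR adjusted p = 2.94e-05) for SPRR2D, whereas in WT acini both were lower, at -2.16 ± 0.55 (edgeR adjusted p = 0.0011) and -1.03 ± 0.26 (edgeR adjusted p = 8.94e-04). The SPRR2A call in JNKKO was lost without JNKKO BBTGF 3 or JNKKO BB 2 (adjusted p of 0.0609 to 0.0882). SPRR2 genes are near-identical copies, so reads may be split between them. The sum of 6 SPRR2 genes was 5.78, 5.27 and 4.82 CPM in JNKKO BBTGF, 2.65, 2.71 and 2.54 in JNKKO BB and 3.59, 2.90 and 3.56 in JNKKO control. In WT the same sum was 0.937, 0.829 and 0.710 CPM in BBTGF, 1.56, 2.48 and 1.88 in BB and 0.444, 1.29 and 1.28 in control. The lowest JNKKO sum was above every WT sum. SCEL (sciellin, a precursor of the envelope) ranged over 0.224 to 2.35 CPM and was higher in BBTGF than in BB in JNKKO acini by 1.41 ± 0.34 (edgeR adjusted p = 7.31e-04). In WT acini it was lower, at -0.95 ± 0.40 (edgeR adjusted p = 0.0400), a call lost without WT BBTGF 1 or 2 or WT BB 1, 2 or 3 (adjusted p of 0.0518 to 0.1442). CNFN (cornifelin) ranged over 0.762 to 2.11 CPM, with a difference between BBTGF and BB of 0.68 ± 0.25 (edgeR adjusted p = 0.0201) in JNKKO acini, lost without JNKKO BBTGF 1 or 2 or JNKKO BB 2 or 3 (adjusted p of 0.0566 to 0.0674), and -0.80 ± 0.23 (edgeR adjusted p = 0.0036) in WT acini.

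SPRR1A ranged over 0 to 1.76 CPM, from a short annotated model of 270 bases that can hold few reads. It was lower in BBTGF than in BB, at a log2 difference of -2.60 ± 0.75 (edgeR adjusted p = 0.0037) in JNKKO and -3.18 ± 0.69 (edgeR adjusted p = 2.08e-04) in WT acini. LCE1C (0.211 to 1.69 CPM) was lower in BBTGF than in BB, at -0.77 ± 0.30 (edgeR adjusted p = 0.0269) in JNKKO acini, a call lost without JNKKO BBTGF 1 or 3 or JNKKO BB 3 (adjusted p of 0.0553 to 0.0884), and -2.21 ± 0.29 (edgeR adjusted p = 1.16e-07) in WT acini. SPRR3 had 16 counts in the 3 JNKKO BBTGF libraries together, against 1 in WT BBTGF, a depth-scaled ratio of 17.8 (95% exact counting interval 2.76 to 745). In WT acini the 3 BBTGF libraries held 1 count, against 33 in BB, which were 31.6 (95% exact counting interval 5.29 to 1284) times higher. Such groups, with at most 3 counts over their 3 libraries, are termed near-empty here, and their fitted log2 values depend on the prior count.

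Envoplakin and periplakin are the plakins on which the envelope forms, and they were among the most abundant members. PPL had 68.3, 66.1 and 62.6 CPM in JNKKO BBTGF acini, 248, 236 and 256 CPM in JNKKO BB and 398, 388 and 382 CPM in JNKKO control. In WT, PPL had 199.7, 141 and 138 CPM in BBTGF, 244, 247 and 252 CPM in BB and 399.6, 373 and 406 CPM in control. All 3 JNKKO BBTGF libraries were below the other 15, and the first WT BBTGF library lay above the other 2 of its group. EVPL had 33.8, 34.1 and 32.5 CPM in JNKKO BBTGF acini, 71.7, 60.6 and 69.8 CPM in JNKKO BB and 94.7, 89.4 and 94.0 CPM in JNKKO control. In WT, EVPL had 56.9, 50.4 and 54.4 CPM in BBTGF, 78.2, 79.2 and 75.3 CPM in BB and 56.7, 60.3 and 64.1 CPM in control. In EVPL too the JNKKO BBTGF libraries were below all others. PPL was lower in BBTGF than in BB, at a log2 difference of -1.91 ± 0.11 (edgeR adjusted p = 4.66e-09) in JNKKO acini and -0.64 ± 0.11 (edgeR adjusted p = 1.43e-04) in WT acini, and EVPL at -1.01 ± 0.058 (edgeR adjusted p = 1.07e-14) and -0.52 ± 0.054 (edgeR adjusted p = 1.63e-09).

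Of the filaggrin family, S100-fused proteins that bind keratin and fill the corneocyte, FLG and HRNR were highest in WT control acini. FLG had 1.35, 0.917 and 0.935 CPM in JNKKO BBTGF acini, 3.47, 3.85 and 3.12 CPM in JNKKO BB and 9.61, 8.68 and 9.86 CPM in JNKKO control. In WT, FLG had 5.77, 6.29 and 4.92 CPM in BBTGF, 6.31, 5.74 and 5.98 CPM in BB and 30.4, 30.9 and 32.4 CPM in control. WT control libraries were above all others and JNKKO BBTGF libraries below all others. HRNR had 0.946, 0.771 and 0.575 CPM in JNKKO BBTGF acini, 3.89, 3.51 and 2.83 CPM in JNKKO BB and 9.44, 7.87 and 7.85 CPM in JNKKO control. In WT, HRNR had 1.36, 1.23 and 1.91 CPM in BBTGF, 7.44, 6.62 and 7.11 CPM in BB and 11.9, 11.1 and 10.5 CPM in control. HRNR (hornerin) was also highest in WT control, with no overlap. FLG was lower in JNKKO than in WT, at a log2 difference of -2.42 ± 0.14 (edgeR adjusted p = 3.81e-14) in BBTGF, -0.79 ± 0.11 (edgeR adjusted p = 1.77e-06) in BB and -1.74 ± 0.085 (edgeR adjusted p = 4.70e-16) in control. HRNR was lower, at -0.97 ± 0.22 (edgeR adjusted p = 5.01e-04), -1.06 ± 0.13 (edgeR adjusted p = 2.10e-07) and -0.41 ± 0.12 (edgeR adjusted p = 0.0038) in the same treatments. FLG shares bases with the antisense gene FLG-AS1 and the strand use of the counting is not given. FLG2 ranged over 0 to 1.37 CPM, was not called in JNKKO against WT control (log2 -0.61, edgeR adjusted p = 0.1078), and had 2 counts in JNKKO BBTGF libraries together, against 15 in JNKKO BB, which were 7.53 (95% exact counting interval 1.75 to 67.9) times higher.

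Transglutaminases form the crosslinks, and TGM1 is the membrane-bound enzyme needed in epidermis. TGM1 had 8.27, 7.48 and 7.12 CPM in JNKKO BBTGF acini, 27.2, 22.5 and 25.3 CPM in JNKKO BB and 50.8, 50.5 and 52.3 CPM in JNKKO control. In WT, TGM1 had 6.41, 5.17 and 5.77 CPM in BBTGF, 17.7, 16.4 and 16.8 CPM in BB and 36.2, 32.8 and 40.1 CPM in control. JNKKO libraries were above WT libraries of the same treatment in all 3 treatments, and JNKKO control was above every other group. TGM1 was lower in BBTGF than in BB, at a log2 difference of -1.71 ± 0.086 (edgeR adjusted p = 2.75e-16) in JNKKO and -1.55 ± 0.091 (edgeR adjusted p = 5.94e-15) in WT acini, and the difference between these was not called (log2 -0.16 ± 0.13, edgeR adjusted p = 0.3718). TGM5 ranged over 0.0353 to 0.729 CPM and was higher in BBTGF than in BB in WT acini by 1.78 ± 0.44 (edgeR adjusted p = 7.88e-04), with 0.90 ± 0.59 (edgeR adjusted p = 0.1915) in JNKKO acini.

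Among proteases and their inhibitors, CASP14 was highest in JNKKO BBTGF acini. CASP14 had 91.6, 86.7 and 73.2 CPM in JNKKO BBTGF acini, 4.83, 3.38 and 5.57 CPM in JNKKO BB and 17.1, 11.7 and 10.9 CPM in JNKKO control. In WT, CASP14 had 0.272, 4.41 and 4.13 CPM in BBTGF, 5.51, 8.46 and 5.81 CPM in BB and 6.13, 2.42 and 5.47 CPM in control. CASP14, the caspase that helps break filaggrin down in epidermis, was in all 3 JNKKO BBTGF libraries above every other library, while the first WT BBTGF library was far below the other 2 of its group. Its log2 difference between BBTGF and BB was 4.20 ± 0.39 (edgeR adjusted p = 5.41e-07) in JNKKO acini and -1.19 ± 0.52 (edgeR adjusted p = 0.0616) in WT acini, where it was not called but became so without WT BBTGF 2 or 3 (adjusted p of 0.0408 to 0.0497). JNKKO and WT BBTGF acini differed by 4.85 ± 0.41 (edgeR adjusted p = 3.56e-07), and by 4.31 (adjusted p = 1.63e-07) without that first WT BBTGF library. SPINK5 had 3.15, 3.49 and 2.48 CPM in JNKKO BBTGF acini, 19.6, 19.4 and 20.3 CPM in JNKKO BB and 17.4, 15.2 and 15.2 CPM in JNKKO control. In WT, SPINK5 had 1.24, 1.96 and 1.45 CPM in BBTGF, 15, 15.7 and 13.6 CPM in BB and 6.54, 8.39 and 12.3 CPM in control. SPINK5 encodes the kallikrein inhibitor LEKTI, and its WT BBTGF libraries were below all others. A2ML1 had 2.63, 1.95 and 2.16 CPM in JNKKO BBTGF acini, 5.47, 4.66 and 5.47 CPM in JNKKO BB and 23.1, 16.1 and 14.5 CPM in JNKKO control. In WT, A2ML1 had 0.0907, 0.199 and 0.0926 CPM in BBTGF, 10.3, 9.57 and 8.79 CPM in BB and 7.84, 7.97 and 18.8 CPM in control. The same held for A2ML1, which encodes an alpha-2-macroglobulin-like inhibitor. SPINK5 was lower in BBTGF than in BB, at -2.69 ± 0.19 (edgeR adjusted p = 2.79e-09) in JNKKO and -3.26 ± 0.21 (edgeR adjusted p = 8.91e-10) in WT acini. A2ML1 was lower, at -1.21 ± 0.41 (edgeR adjusted p = 0.0203) in JNKKO acini, a call lost without JNKKO BBTGF 2 or 3 or JNKKO BB 3 (adjusted p of 0.0528 to 0.0649), and -6.20 ± 0.62 (edgeR adjusted p = 1.00e-06) in WT acini. ASPRV1, the retroviral-like protease that cuts profilaggrin, ranged over 0.401 to 1.02 CPM and was called in none of the 9 comparisons by edgeR (lowest adjusted p = 0.2900).

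Calmodulin-like proteins mark differentiating epithelial cells. CALML3 had 0.828, 0.825 and 0.432 CPM in JNKKO BBTGF acini, 8.24, 6.91 and 8.22 CPM in JNKKO BB and 27.6, 30.1 and 27.7 CPM in JNKKO control. In WT, CALML3 had 1.81, 1.24 and 1.56 CPM in BBTGF, 22.7, 24.4 and 23.7 CPM in BB and 6.85, 9.13 and 7.31 CPM in control. Levels were lowest in the BBTGF groups of both genotypes, and dimerizer acini were below control in JNKKO and above control in WT. CALML3 overlaps 2 antisense genes. CALML5 ranged over 0 to 1.30 CPM, with 5 counts in JNKKO BBTGF libraries together, against 3 in WT BBTGF.

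The secreted products KRTDAP, SBSN and DMKN come from neighbouring genes on chromosome 19. SBSN had 6.34, 5.60 and 5.18 CPM in JNKKO BBTGF acini, 12.3, 8.91 and 11.5 CPM in JNKKO BB and 34.8, 27 and 25.6 CPM in JNKKO control. In WT, SBSN had 0.514, 0.564 and 0.463 CPM in BBTGF, 12.9, 12 and 12.9 CPM in BB and 9.02, 7.97 and 21.7 CPM in control. SBSN (suprabasin) was lowest in WT BBTGF, with no overlap. KRTDAP had 0.175, 0.201 and 0.0719 CPM in JNKKO BBTGF acini, 1.24, 0.671 and 0.837 CPM in JNKKO BB and 7.08, 5.30 and 4.29 CPM in JNKKO control. In WT, KRTDAP had 0.0302, 0 and 0 CPM in BBTGF, 0.896, 0.496 and 0.983 CPM in BB and 1.37, 1.26 and 2.82 CPM in control. KRTDAP was highest in JNKKO control, with no overlap. DMKN had 37.1, 38.3 and 33.6 CPM in JNKKO BBTGF acini, 45.5, 38.8 and 45.4 CPM in JNKKO BB and 52.8, 48.4 and 46.2 CPM in JNKKO control. In WT, DMKN had 21.4, 17.4 and 20.8 CPM in BBTGF, 30.7, 31.5 and 32.1 CPM in BB and 22.3, 19.3 and 26.6 CPM in control. DMKN (dermokine, with 22 annotated transcripts) was higher in JNKKO than in WT in each treatment without overlap. SBSN differed between BBTGF and BB by -4.61 ± 0.51 (edgeR adjusted p = 2.87e-06) in WT acini and -0.92 ± 0.34 (edgeR adjusted p = 0.0339) in JNKKO acini, the second call being lost without JNKKO BBTGF 1, 2 or 3 or JNKKO BB 1 or 3 (adjusted p of 0.0579 to 0.0887). KRTDAP had 1 count in the WT BBTGF libraries together, against 79 in WT BB, which were 75.6 (95% exact counting interval 13.2 to 3022) times higher.

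LYPD3 and CDSN encode surface and adhesion proteins. LYPD3 had 46.9, 49.4 and 51.6 CPM in JNKKO BBTGF acini, 25.8, 20.5 and 24.4 CPM in JNKKO BB and 34.5, 35.5 and 30.0 CPM in JNKKO control. In WT, LYPD3 had 112, 122 and 126 CPM in BBTGF, 33.2, 33.0 and 35 CPM in BB and 22.3, 22.8 and 29.2 CPM in control. LYPD3 encodes the adhesion-related surface protein C4.4A, and WT BBTGF libraries were above all others. It was higher in BBTGF than in BB by a log2 1.07 ± 0.10 (edgeR adjusted p = 1.10e-07) in JNKKO and 1.83 ± 0.090 (edgeR adjusted p = 2.58e-11) in WT acini. CDSN had 5.60, 6.88 and 5.72 CPM in JNKKO BBTGF acini, 8.11, 6.20 and 6.05 CPM in JNKKO BB and 5.74, 5.37 and 6.86 CPM in JNKKO control. In WT, CDSN had 6.71, 6.70 and 8.21 CPM in BBTGF, 5.74, 5.89 and 5.28 CPM in BB and 7.46, 7.71 and 12.9 CPM in control. CDSN encodes corneodesmosin, the adhesive protein of corneocyte junctions, and the groups overlapped, with the third WT control library the highest. Nearly all of its annotated bases overlap PSORS1C1 on the other strand.

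Of the lipid genes, ABCA12 and PLA2G4F were lower in BBTGF than in BB in both genotypes. ABCA12 had 87.5, 81.8 and 82.5 CPM in JNKKO BBTGF acini, 241, 302 and 249.9 CPM in JNKKO BB and 186, 178 and 189 CPM in JNKKO control. In WT, ABCA12 had 117, 124 and 113 CPM in BBTGF, 237, 231 and 245 CPM in BB and 105, 108 and 102 CPM in control. ABCA12, the keratinocyte lipid transporter, had the lowest 3 libraries in JNKKO BBTGF and differed between BBTGF and BB by a log2 -1.66 ± 0.065 (edgeR adjusted p = 4.86e-14) in JNKKO and -1.01 ± 0.063 (edgeR adjusted p = 4.58e-11) in WT acini. PLA2G4F had 0.140, 0.101 and 0.252 CPM in JNKKO BBTGF acini, 19.5, 20.5 and 17.2 CPM in JNKKO BB and 32.5, 34.6 and 41.5 CPM in JNKKO control. In WT, PLA2G4F had 0.786, 0.928 and 0.741 CPM in BBTGF, 28.5, 29.6 and 33.2 CPM in BB and 18.6, 25.0 and 25.9 CPM in control. PLA2G4F encodes a cytosolic phospholipase A2, and both BBTGF groups were below all other libraries, JNKKO below WT. It was lower in BBTGF than in BB, at -6.84 ± 0.28 (edgeR adjusted p = 5.27e-13) in JNKKO and -5.22 ± 0.19 (edgeR adjusted p = 7.19e-14) in WT acini. PLA2G4F stood at 0.04, 0.03 and 0.07 TPM in JNKKO BBTGF, so the size of the JNKKO value rests on few reads. ALOX12B, the epidermal lipoxygenase, ranged over 0.0331 to 1.41 CPM and was lower in BBTGF than in BB in JNKKO acini, at -1.36 ± 0.58 (edgeR adjusted p = 0.0440), a call lost without JNKKO BBTGF 1 or 3 or JNKKO BB 1 or 2 (adjusted p of 0.0649 to 0.1725).

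**Figure D3:**
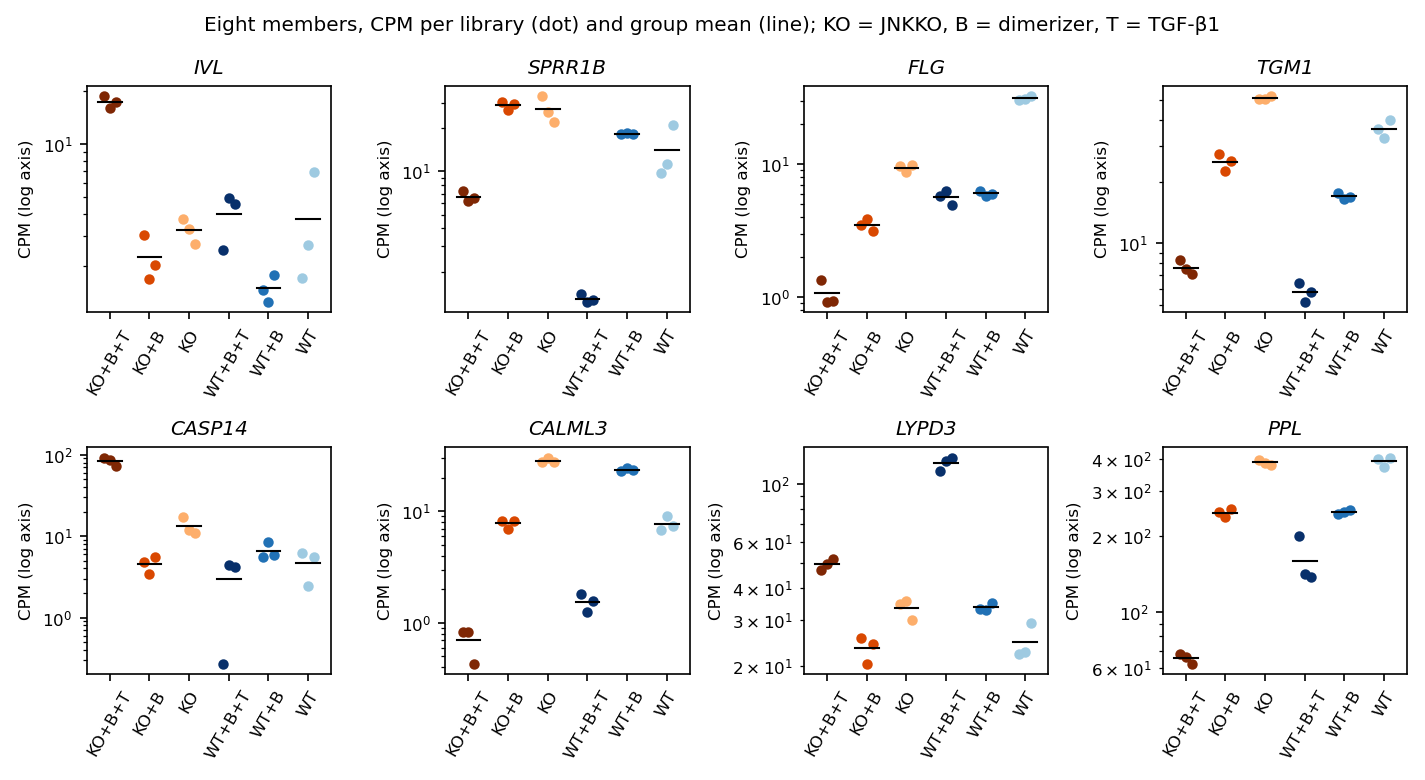
CPM per library (dots, log axis that differs between panels) and group mean (line) for IVL, SPRR1B, FLG, TGM1, CASP14, CALML3, LYPD3 and PPL, with JNKKO groups left of WT groups. CASP14 stood at 73.2 to 91.6 CPM in JNKKO BBTGF acini, above every other library.

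The first comparison asked what HER2 dimerization did to these genes in JNKKO and in WT acini. In JNKKO acini, BB against control gave more lower than higher members. There, 1 of 30 tested members was higher (background 22.5% of all tested genes), 17 were lower (background 17.9%) and 12 were not called, with a median log2 difference of -0.74 against 0.0065 over all tested genes. The higher one was ABCA12 (log2 0.52 ± 0.062, edgeR adjusted p = 1.74e-06). In WT acini, 11 of 30 tested members were higher (background 30.3% of all tested genes), 8 were lower (background 25.6%) and 11 were not called, with a median of 0.39 against 0.033 over all tested genes. FLG, FLG2, HRNR, TGM1, KRTDAP and PPL were lower in both genotypes, and CNFN, CALML3, PLA2G4F, LYPD3 and EVPL were lower in JNKKO and higher in WT. The WT call of PLA2G4F was lost with only the compared groups fitted (edgeR adjusted p = 0.0625). FLG differed by -1.43 ± 0.11 (edgeR adjusted p = 1.32e-11) in JNKKO and -2.38 ± 0.088 (edgeR adjusted p = 5.37e-19) in WT acini, and CALML3 by -1.88 ± 0.098 (edgeR adjusted p = 5.66e-15) and 1.60 ± 0.097 (edgeR adjusted p = 4.02e-14). The differences between genotypes were tested by an interaction term, the JNKKO difference minus the WT difference. By it, 2 of 30 tested members had a positive interaction (background 21.4% of all tested genes), 17 a negative one (background 21.2%) and 11 were not called, with a median of -1.03 against 0.0052 over all tested genes. CALML3 (log2 -3.48 ± 0.14, edgeR adjusted p = 2.18e-17), CNFN (log2 -1.88 ± 0.34, edgeR adjusted p = 5.18e-05), LYPD3 (log2 -0.96 ± 0.14, edgeR adjusted p = 5.76e-05), EVPL (log2 -0.83 ± 0.076, edgeR adjusted p = 1.16e-09) and PLA2G4F (log2 -1.32 ± 0.16, edgeR adjusted p = 3.50e-06) passed. The 2 with a positive interaction were FLG (log2 0.95 ± 0.14, edgeR adjusted p = 4.22e-06) and CDSN (log2 0.90 ± 0.27, edgeR adjusted p = 0.0114). Without the third WT control library, the high one in summed TPM, 14 members were higher and 6 lower in WT, and 21 had a negative interaction. SBSN, not called in WT (log2 -0.025 ± 0.29, edgeR adjusted p = 0.9520), was then higher by 0.57 (edgeR adjusted p = 0.0012), SPRR1B became called (adjusted p = 4.75e-05) and the calls of IVL and KRTDAP were lost (adjusted p of 0.2021 and 0.0523). The IVL call (log2 -1.30 ± 0.47, edgeR adjusted p = 0.0320) was also lost without any 1 of the WT BB libraries (lowest adjusted p = 0.0506). Without the first JNKKO control library, 15 members were lower in JNKKO, CASP14 and SPRR3 losing their calls (adjusted p of 0.0652 and 0.1105). The CASP14 interaction (log2 -2.04 ± 0.66, edgeR adjusted p = 0.0245) was lost without JNKKO BB 2 or JNKKO control 1 or WT BB 2 or WT control 2 (adjusted p of 0.0538 to 0.0680) and that of KRTDAP without WT BB 3 (adjusted p = 0.0585). Among the squamous transcription factors TP63, GRHL3, ZNF750 and KLF4 in JNKKO acini, the log2 difference was -0.18 ± 0.046 (edgeR adjusted p = 0.0028) for TP63, -0.42 ± 0.084 (edgeR adjusted p = 1.88e-04) for GRHL3, -0.87 ± 0.18 (edgeR adjusted p = 2.12e-04) for ZNF750 and 0.061 ± 0.069 (edgeR adjusted p = 0.5134) for KLF4. In WT acini the values were 0.45 ± 0.046 (adjusted p = 1.94e-09) for TP63, 0.35 ± 0.082 (7.31e-04) for GRHL3, 0.52 ± 0.18 (0.0150) for ZNF750 and -0.22 ± 0.064 (0.0052) for KLF4.

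With TGF-β1 added to the dimerizer, most tested members were lower in both genotypes. In JNKKO acini, BBTGF against BB, 7 of 30 tested members were higher (background 30.5% of all tested genes), 19 were lower (background 30.3%) and 4 were not called, with a median log2 difference of -1.11 against -0.0073 over all tested genes. In WT acini, 3 of 30 tested members were higher (background 33.4% of all tested genes), 22 were lower (background 31.8%) and 5 were not called, with a median of -1.55 against 0.0017 over all tested genes. The BB libraries serve as reference here and as treated group in the comparison above, so the 2 sets of values are not independent. Lower in both genotypes were 17 members, among them PLA2G4F, CALML3, SPINK5, TGM1, PPL and ABCA12, and higher in both were IVL and LYPD3. Without 1 library at a time, 5 to 7 members were higher and 14 to 18 lower in JNKKO. The JNKKO call of CALML5 was lost without JNKKO BBTGF 1 or 2 or JNKKO BB 1 or 3 (edgeR adjusted p of 0.0731 to 0.1628). Those of LCE1C and FLG2 were lost with DESeq2 (adjusted p = 0.0633) and on log2(TPM + 1) (limma adjusted p = 0.6201), in that order. SPRR2A, SPRR2D, CNFN and SCEL were higher in JNKKO and lower in WT. By the interaction term, 12 of 30 tested members had a positive interaction (background 14.1% of all tested genes), 6 a negative one (background 18.8%) and 12 were not called, with a median of 0.57 against -0.024 over all tested genes. CASP14 had the largest positive value (log2 5.39 ± 0.65, edgeR adjusted p = 3.17e-05), followed by A2ML1 (log2 4.99 ± 0.89, edgeR adjusted p = 7.70e-04) among members with no near-empty group. In WT BBTGF, A2ML1 still stood at only 0.03, 0.06 and 0.03 TPM, so the size of its value rests on few reads. Positive interactions of members lowered in both genotypes mean a smaller fall in JNKKO, as in SBSN (log2 3.69 ± 0.68, edgeR adjusted p = 0.0010) and SPRR1B (log2 1.69 ± 0.46, edgeR adjusted p = 0.0133). Negative ones included FLG (log2 -1.63 ± 0.19, edgeR adjusted p = 1.34e-07), PPL (log2 -1.27 ± 0.16, edgeR adjusted p = 3.24e-05) and LYPD3 (log2 -0.76 ± 0.13, edgeR adjusted p = 4.00e-04). IVL did not pass (log2 1.58 ± 0.64, edgeR adjusted p = 0.0772), though it did with DESeq2 (adjusted p = 0.0349). DMKN in JNKKO acini was lower in CPM (log2 -0.25 ± 0.097, edgeR adjusted p = 0.0357) but had a value of 0.19 on log2(TPM + 1), not called, where the median over all tested genes itself moved by 0.17, and its CPM call was lost without JNKKO BBTGF 1 or 3 or JNKKO BB 1 or 3 (adjusted p of 0.0734 to 0.1300). The PLA2G4F interaction (log2 -1.62 ± 0.59, edgeR adjusted p = 0.0443) was 0.46 on log2(TPM + 1) (limma adjusted p = 0.0234) and its edgeR call was lost without JNKKO BBTGF 1 or 2 or JNKKO BB 1 or 2 or WT BBTGF 1, 2 or 3 or WT BB 1 or 2 (adjusted p of 0.0545 to 0.1470). On the TPM scales the median over all genes moved by up to 0.23 on the log2 scale, in BBTGF against BB in JNKKO acini. Of the same 4 factors in JNKKO acini, the log2 difference was -0.86 ± 0.049 (edgeR adjusted p = 3.22e-15) for TP63, -0.96 ± 0.094 (edgeR adjusted p = 4.75e-10) for GRHL3, -1.93 ± 0.23 (edgeR adjusted p = 2.05e-08) for ZNF750 and -0.031 ± 0.068 (edgeR adjusted p = 0.7174) for KLF4. In WT acini they were -0.25 ± 0.046 (adjusted p = 2.66e-05) for TP63, -2.10 ± 0.098 (2.25e-17) for GRHL3, -1.92 ± 0.21 (2.66e-09) for ZNF750 and 0.86 ± 0.062 (5.97e-13) for KLF4.

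**Figure D4:**
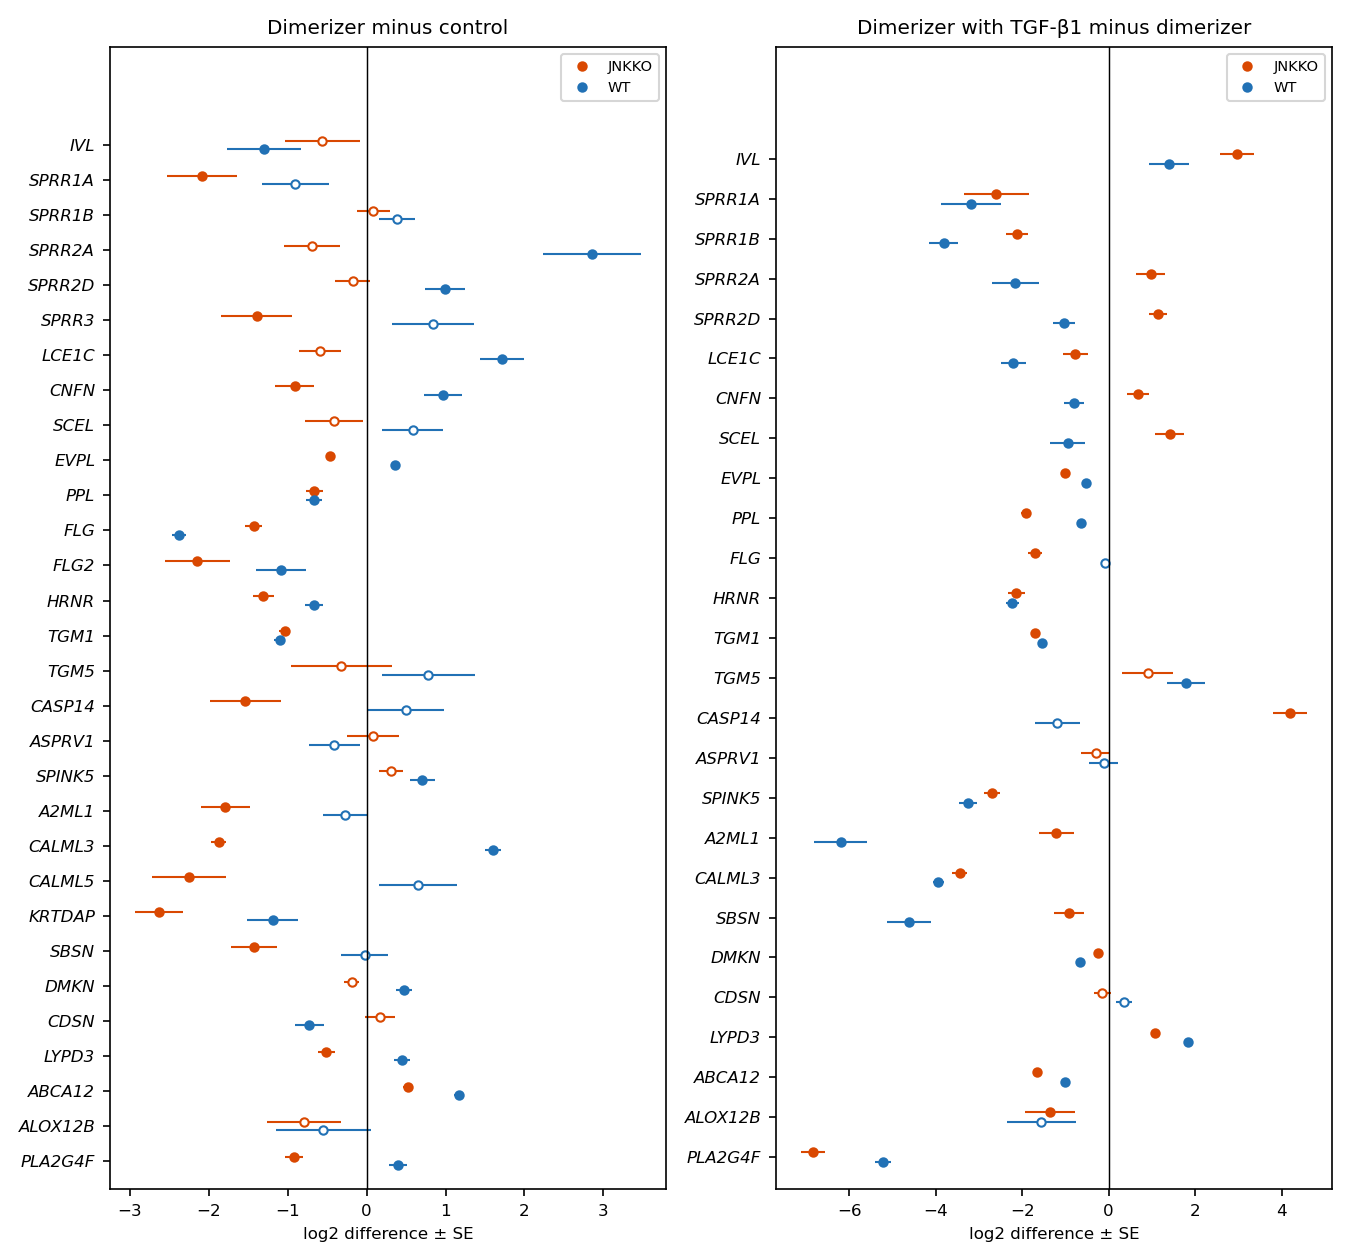
Log2 difference (± SE) of BB from control acini (left, 30 members) and of BBTGF from BB acini (right, 26 members with no near-empty group), in JNKKO (orange) and WT (blue), filled where the edgeR adjusted p was under 0.05. In the right panel CASP14 lies far right of 0 in JNKKO and left of it, unfilled, in WT.

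Genotype was compared within each treatment. In BBTGF acini, JNKKO against WT, 13 of 30 tested members were higher (background 26.5% of all tested genes), 9 were lower (background 26.4%) and 8 were not called, with a median log2 difference of 0.58 against -0.0040 over all tested genes. The 13 higher members were IVL, SPRR1B, SPRR2A, SPRR2D, SPRR3, SCEL, TGM1, CASP14, SPINK5, A2ML1, KRTDAP, SBSN and DMKN, and the 9 lower ones FLG, HRNR, EVPL, PPL, TGM5, CALML3, LYPD3, ABCA12 and PLA2G4F. The largest of the higher ones outside near-empty groups were CASP14 (log2 4.85 ± 0.41, edgeR adjusted p = 3.56e-07), A2ML1 (log2 4.11 ± 0.84, edgeR adjusted p = 0.0010), SPRR2A (log2 3.87 ± 0.47, edgeR adjusted p = 6.45e-08) and SBSN (log2 3.47 ± 0.59, edgeR adjusted p = 2.58e-04). In WT BBTGF, A2ML1 stood at 0.03, 0.06 and 0.03 TPM and SPRR2A at 0.19, 0.10 and 0.40 TPM. The sizes of their log2 values thus rest on few reads. PPL differed by -1.28 ± 0.11 (edgeR adjusted p = 5.63e-07) and LYPD3 by -1.29 ± 0.088 (edgeR adjusted p = 4.78e-09). KRTDAP's call was lost without JNKKO BBTGF 1 or 2 or WT BBTGF 2 or 3 (adjusted p up to 0.0685). That of PLA2G4F (log2 -2.30 ± 0.56, edgeR adjusted p = 0.0023) was lost on log2(TPM + 1) (limma adjusted p = 0.0735). Among members with a promoter window, TGAGTCA was present in 9 of 11 higher, 0 of 7 lower and 1 of 8 not called (with TGANTCA, 9, 1 and 2). This grouping was made after both were seen, in the comparison where it was clearest, and has no test. In JNKKO against WT control acini TGAGTCA was in 8 of 17 higher, 0 of 3 lower and 2 of 6 not called members, and in BB acini in 2 of 3, 0 of 9 and 8 of 14. In BBTGF against BB it was in 4 of 6 higher, 5 of 16 lower and 1 of 4 not called in JNKKO, and in 1 of 3, 8 of 18 and 1 of 5 in WT. In BB against control it was in 0 of 1, 5 of 14 and 5 of 11 in JNKKO, and in 2 of 9, 2 of 6 and 6 of 11 in WT. Without the third WT BBTGF library, whose genotype tag differs from its title, 13 members were higher and 9 lower, and without the first, low in CASP14, 14 and 9. For the 4 transcription factors, the log2 difference was -0.80 ± 0.048 (edgeR adjusted p = 4.73e-14) for TP63, 0.82 ± 0.11 (edgeR adjusted p = 3.94e-07) for GRHL3, -0.34 ± 0.27 (edgeR adjusted p = 0.3021) for ZNF750 and -1.01 ± 0.064 (edgeR adjusted p = 1.02e-13) for KLF4.

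In BB acini, 4 of 30 tested members were higher (background 21.6% of all tested genes), 10 were lower (background 18.5%) and 16 were not called, with a median of -0.20 against 0.0040 over all tested genes. On log2(TPM + 1) with limma the split was 1 higher and 9 lower, and without 1 library at a time 2 to 3 members were higher with edgeR. The higher ones were SPRR1B (log2 0.67 ± 0.21, edgeR adjusted p = 0.0240), TGM1 (log2 0.55 ± 0.075, edgeR adjusted p = 7.76e-07), DMKN (log2 0.46 ± 0.097, edgeR adjusted p = 0.0012) and SPINK5 (log2 0.42 ± 0.15, edgeR adjusted p = 0.0340). SPRR1B lost its call without JNKKO BB 1 or 3 or WT BB 1, 2 or 3 (adjusted p of 0.0583 to 0.0641), SPINK5 without JNKKO BB 1, 2 or 3 or WT BB 1, 2 or 3 (adjusted p of 0.0516 to 0.1175) and A2ML1, among the lower ones, without JNKKO BB 1, 2 or 3 or WT BB 1, 2 or 3 (adjusted p of 0.0693 to 0.1293). CALML3 (log2 -1.61 ± 0.098, edgeR adjusted p = 1.71e-13) and HRNR (log2 -1.06 ± 0.13, edgeR adjusted p = 2.10e-07) were lower. In control acini, 20 of 30 tested members were higher (background 25.8% of all tested genes), 3 were lower (background 23.5%) and 7 were not called, with a median of 0.81 against 0.0067 over all tested genes. CALML3 (log2 1.87 ± 0.097, edgeR adjusted p = 1.87e-15), KRTDAP (log2 1.62 ± 0.28, edgeR adjusted p = 3.53e-05) and DMKN (log2 1.12 ± 0.10, edgeR adjusted p = 1.01e-07) were higher, as was SPRR2A, at 1.16, 0.847 and 0.766 CPM in JNKKO, against 0, 0.0323 and 0.101 in WT, and FLG, HRNR and CDSN (log2 -0.64 ± 0.18, edgeR adjusted p = 0.0082) were lower. The call of ALOX12B was lost without JNKKO control 1 or WT control 1 (adjusted p of 0.0623 to 0.1669), that of CASP14 without JNKKO control 1 or WT control 2 (adjusted p of 0.0519 to 0.0567) and that of SCEL without JNKKO control 1 or 2 or WT control 1 or 2 (adjusted p of 0.0571 to 0.1468), while A2ML1 and SPRR1A became called without the third WT control library (adjusted p of 1.51e-06 and 0.0055). Without that library 22 members were higher, and without the first JNKKO control library 17. SPRR1B, TGM1, DMKN and SPINK5 were higher in JNKKO in all 3 treatments by edgeR, and FLG and HRNR were lower in all 3. Of these, FLG alone kept its call in all 3 treatments under every other setting. In BB, DMKN was 0.12 on log2(TPM + 1) (limma adjusted p = 0.2745), and SPRR1B (limma adjusted p = 0.0625) and SPINK5 (limma adjusted p = 0.1731) lost their calls there too. In BBTGF, TGM1 (limma adjusted p = 0.0600) and HRNR (limma adjusted p = 0.0675) lost theirs on that scale. In control, HRNR lost its call on log2(TPM + 0.1) (limma adjusted p = 0.0791), and CDSN (edgeR adjusted p = 0.0958), SBSN (edgeR adjusted p = 0.1015) and SPRR1B (edgeR adjusted p = 0.1041) with only the compared groups fitted. TP63, GRHL3, ZNF750 and KLF4 differed in BB by -0.19 ± 0.046 (adjusted p = 0.0015), -0.32 ± 0.083 (0.0023), -0.32 ± 0.18 (0.1569) and -0.12 ± 0.066 (0.1444) in that order, and in control by 0.44 ± 0.047 (5.20e-09), 0.44 ± 0.083 (6.82e-05), 1.06 ± 0.18 (1.15e-05) and -0.40 ± 0.066 (1.01e-05).

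**Figure D5:**
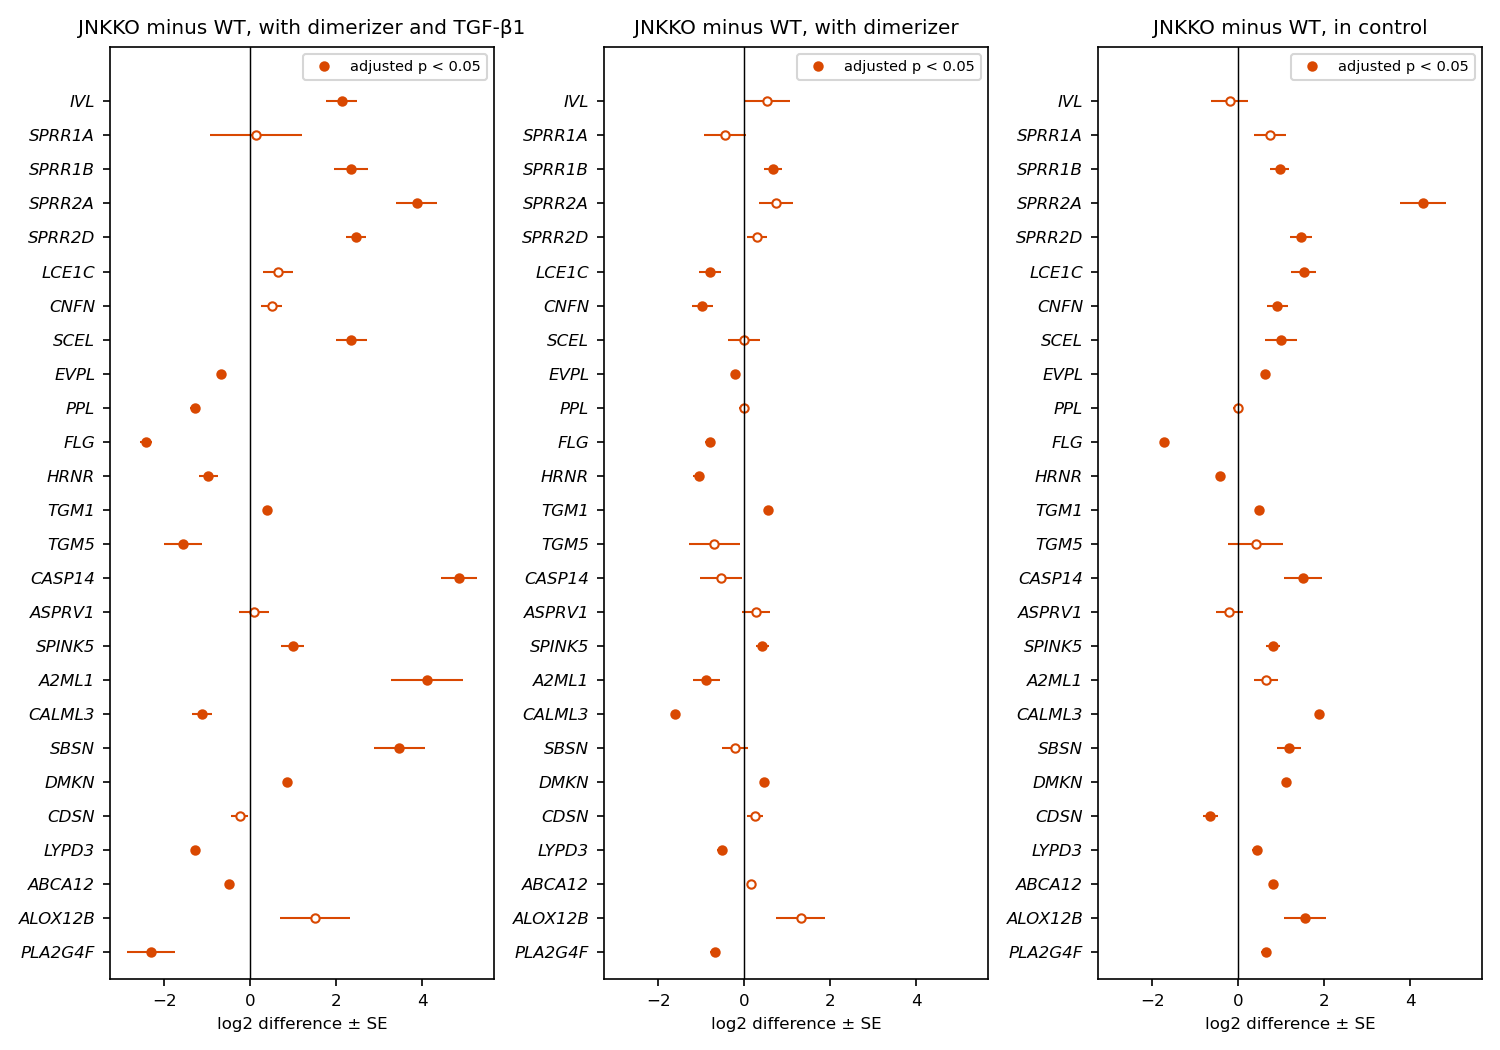
Log2 difference of JNKKO from WT acini (± SE) for 26 members with no near-empty group, in BBTGF (left), BB (middle) and control (right), filled where the edgeR adjusted p was under 0.05. FLG and HRNR lie left of 0 in all 3 panels, and SPRR1B, TGM1, DMKN and SPINK5 right of it, though all but FLG lose a call under another setting.

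Other genes of the squamous programme were read from 6 lists. For BBTGF against BB, the shares over all tested genes were 30.5% higher and 30.3% lower in JNKKO and 33.4% higher and 31.8% lower in WT. Against these, the counts of the barrier lipid genes and of the AP-1 subunits in JNKKO were near the background. Of the other cornified envelope precursors tested, BBTGF against BB gave 1 higher and 3 lower of 8 (median -0.57) in JNKKO and 0 higher and 6 lower of 8 (median -1.87) in WT acini. CSTA (cystatin A, a precursor and protease inhibitor) was lower, at -1.14 ± 0.041 (edgeR adjusted p = 1.11e-19) in JNKKO and -1.63 ± 0.042 (edgeR adjusted p = 2.97e-23) in WT, and PI3 (elafin), at -2.53 ± 0.37 (edgeR adjusted p = 4.19e-05) in WT. The squamous regulators gave 5 higher and 14 lower of 24 (median -0.47) in JNKKO and 8 higher and 13 lower of 24 (median -0.35) in WT. EHF, an epithelial ETS factor, stood at 1.57 ± 0.262 CPM in JNKKO BBTGF, 12.7 ± 0.644 in JNKKO BB and 23.7 ± 2.77 in JNKKO control, and at 1.09 ± 0.121, 22.5 ± 1.01 and 4.10 ± 0.752 CPM in WT BBTGF, BB and control (SD, n = 3). It was lower in BBTGF than in BB, at -3.02 ± 0.13 (edgeR adjusted p = 1.26e-17) in JNKKO and -4.36 ± 0.13 (edgeR adjusted p = 9.85e-22) in WT, and its interaction with the dimerizer was -3.35 ± 0.14 (edgeR adjusted p = 4.62e-17). RIPK4 (a kinase of epidermal differentiation) was lower in JNKKO than in WT BBTGF acini, at -1.12 ± 0.056 (edgeR adjusted p = 7.29e-16). The AP-1 subunits gave 3 higher and 3 lower of 9 (median 0.13) in JNKKO and 5 higher and 3 lower of 9 (median 0.34) in WT, JUN being higher by 2.06 ± 0.066 (edgeR adjusted p = 5.74e-15) and 1.99 ± 0.066 (edgeR adjusted p = 7.00e-15). Between genotypes in BBTGF acini, FOSL2 differed by -0.97 ± 0.050 (edgeR adjusted p = 5.08e-14), FOSL1 by 0.80 ± 0.071 (edgeR adjusted p = 1.84e-10) and ATF3 by -2.04 ± 0.21 (edgeR adjusted p = 1.90e-09).

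Squamous keratins gave 1 higher and 8 lower of 14 (median -1.10) in JNKKO and 3 higher and 10 lower of 14 (median -1.64) in WT for BBTGF against BB. KRT15 was lower, at -4.01 ± 0.13 (edgeR adjusted p = 5.96e-12) in JNKKO and -5.85 ± 0.14 (edgeR adjusted p = 2.03e-13) in WT acini, and KRT6A, a wound and stress keratin, higher by 1.11 ± 0.035 (edgeR adjusted p = 2.63e-21) in WT. KRT1, an early differentiation keratin, was higher in JNKKO than in WT control acini by 2.88 ± 0.20 (edgeR adjusted p = 4.63e-08). KRT10, also a differentiation keratin, went the other way, at 2872 ± 11.6 CPM in JNKKO control and 7027 ± 459 in WT control (SD, n = 3 each). Barrier lipid genes gave 5 higher and 5 lower of 18 (median -0.12) in JNKKO and 7 higher and 8 lower of 18 (median -0.16) in WT. SMPD1, a lysosomal sphingomyelinase that releases ceramide, was higher, by 0.94 ± 0.068 (edgeR adjusted p = 6.17e-13) in JNKKO acini and by 1.0 ± 0.068 (edgeR adjusted p = 1.27e-13) in WT. Other barrier protein processing genes gave 8 higher and 3 lower of 14 (median 0.37) in JNKKO and 6 higher and 5 lower of 14 (median -0.045) in WT. In JNKKO, TGM2 (tissue transglutaminase) was higher by 6.92 ± 0.19 (edgeR adjusted p = 1.23e-12) and ST14 (matriptase) lower, at -1.12 ± 0.070 (edgeR adjusted p = 6.52e-11). Both went the same way in WT. TGM2 had 471 ± 90.5 CPM in WT BBTGF and 1.52 ± 0.262 in WT BB, and ST14 77.0 ± 7.75 and 138 ± 4.4 (SD, n = 3 each). BLMH, a protease of filaggrin breakdown, was higher in JNKKO than in WT BBTGF acini by 1.0 ± 0.063 (edgeR adjusted p = 1.10e-13).

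With the dimerizer, several of these genes moved in opposite directions in the genotypes. Over all tested genes, 22.5% were higher and 17.9% lower in BB than in control in JNKKO, and 30.3% and 25.6% in WT. Higher and lower in BB than in control in JNKKO acini were 1 and 2 of 8 other cornified envelope precursors, 6 and 13 of 24 squamous programme regulators, 4 and 1 of 9 AP-1 subunits, 1 and 9 of 14 squamous keratins, 8 and 4 of 18 barrier lipid genes, and 5 and 2 of 14 other barrier protein processing genes. In WT acini the same counts were 3 and 1 of 8 other cornified envelope precursors, 13 and 5 of 24 squamous programme regulators, 0 and 4 of 9 AP-1 subunits, 3 and 4 of 14 squamous keratins, 4 and 2 of 18 barrier lipid genes, 6 and 1 of 14 other barrier protein processing genes. EHF differed by -0.90 ± 0.090 (edgeR adjusted p = 3.42e-09) in JNKKO and 2.45 ± 0.10 (edgeR adjusted p = 1.12e-17) in WT acini, and KRT6A by 0.62 ± 0.035 (edgeR adjusted p = 1.91e-14) and -0.48 ± 0.034 (edgeR adjusted p = 1.86e-12). Its interaction was 1.10 ± 0.049 (edgeR adjusted p = 2.14e-16). JUN also differed in sign, at 0.59 ± 0.069 (edgeR adjusted p = 2.04e-06) in JNKKO and -0.23 ± 0.067 (edgeR adjusted p = 0.0070) in WT, whereas FOSL2 was lower in both, at -0.68 ± 0.049 (edgeR adjusted p = 5.63e-11) and -1.12 ± 0.049 (edgeR adjusted p = 1.83e-15). The differentiation keratins KRT1 and KRT10 were lower in JNKKO, at -2.36 ± 0.19 (edgeR adjusted p = 3.84e-07) and -1.82 ± 0.17 (edgeR adjusted p = 1.53e-06). KRT10 was also lower in WT BB, at 981 ± 56.1 CPM, than in WT control, at 7027 ± 459 CPM (SD, n = 3 each). KRT1 stood at 8.50 ± 0.1 and 10.3 ± 2.35 CPM in the same WT groups. ABHD5, a lipase cofactor needed for barrier lipid, was lower in JNKKO at -0.33 ± 0.048 (edgeR adjusted p = 1.90e-06) and higher in WT at 0.56 ± 0.047 (edgeR adjusted p = 4.31e-11). The interaction was 0.82 ± 0.097 (edgeR adjusted p = 1.96e-06) for JUN and -0.89 ± 0.067 (edgeR adjusted p = 1.35e-11) for ABHD5. Between genotypes, the shares of all tested genes higher and lower in JNKKO were 26.5% and 26.4% in BBTGF, 21.6% and 18.5% in BB and 25.8% and 23.5% in control. In BBTGF acini, higher and lower in JNKKO than in WT were 4 and 0 of 8 other cornified envelope precursors, 9 and 11 of 24 squamous programme regulators, 2 and 4 of 9 AP-1 subunits, 4 and 4 of 14 squamous keratins, 8 and 6 of 18 barrier lipid genes, 10 and 3 of 14 other barrier protein processing genes. KRT6A was lower in JNKKO, at -0.44 ± 0.034 (edgeR adjusted p = 1.02e-11) and KRT16 was higher, at 1.35 ± 0.074 (edgeR adjusted p = 3.00e-10). In BB acini the counts were 2 and 2 of 8 other cornified envelope precursors, 6 and 9 of 24 squamous programme regulators, 4 and 2 of 9 AP-1 subunits, 3 and 5 of 14 squamous keratins, 7 and 1 of 18 barrier lipid genes, 7 and 2 of 14 other barrier protein processing genes, and in control acini 2 and 0 of 8 other cornified envelope precursors, 16 and 3 of 24 squamous programme regulators, 1 and 4 of 9 AP-1 subunits, 7 and 3 of 14 squamous keratins, 7 and 1 of 18 barrier lipid genes, 9 and 1 of 14 other barrier protein processing genes. The median log2 difference over all tested genes lay between -0.0073 and 0.033 in these comparisons.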

How the data were processed

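RNA from 18 libraries was sequenced in read pairs after poly(A) selection and ribosomal depletion, per the labels' protocols. The deposited tables hold RSEM expected counts and TPM per gene, which the authors made with reads trimmed by cutadapt and the hg38 build, per the submitters' processing notes. Strand use is not given in the sources used here. Of the gene names, 127 held replaced text and were restored from GENCODE 29 symbols. The expected counts (24243537 to 34499651 a library) were rounded and tested with edgeR 4.0.16 (TMM, filterByExpr with a minimum count of 10, robust quasi-likelihood F tests over 16911 genes and all 18 libraries, Benjamini-Hochberg). Groups came from titles. CPM are TMM-scaled. Ratios of groups with few counts have exact intervals that cover counting error only. Alternatives were RLE factors, DESeq2 1.42.0, no low-count filter, the replicate number as a block, only the compared groups, limma 3.58.1 on log2(TPM + 1), filtered and not, and on log2(TPM + 0.1), and leaving out each library. Scripts were tested on simulated data. Members at 5 CPM or more in 1 group are given per library, others by range. From each of 6 lists, up to 3 called genes a comparison with the smallest adjusted p and 5 CPM or more could be named, and TP63, GRHL3, ZNF750 and KLF4 always. Members, lists, motifs and the promoters shown were chosen with earlier results of these data known.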

Additional observations from a re-analysis of the deposited data

Results flagged for a closer look

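In 37 cases the difference between treatments was not the same in JNKKO and WT acini, by edgeR's test of the interaction term at an adjusted p under 0.05 (log2 difference in JNKKO minus log2 difference in WT, 3 libraries a group). Over all tested genes the interaction with BB was positive for 21.4% and negative for 21.2%, against 2 and 17 of 30 members, and that with TGF-β1 for 14.1% and 18.8%, against 12 and 6 of 30. For BB against control, 5 members were lower with BB in JNKKO and higher in WT, and their interaction terms were -1.88 for CNFN, -3.48 for CALML3, -1.32 for PLA2G4F, -0.96 for LYPD3 and -0.83 for EVPL. The other 12 negative terms were -3.55 for SPRR2A, -1.17 for SPRR2D, -2.23 for SPRR3, -2.31 for LCE1C, -0.65 for HRNR, -2.04 for CASP14, -1.52 for A2ML1, -1.44 for KRTDAP, -1.40 for SBSN, -2.90 for CALML5, -0.66 for DMKN and -0.65 for ABCA12. SPRR2A stood at 0, 0.09 and 0.26 TPM in WT control, so the size of its term rests on few reads. The 2 positive terms were 0.95 for FLG and 0.90 for CDSN. Of these, the CASP14 and KRTDAP terms were lost without 1 library. Both were also lost on log2(TPM + 0.1) (limma adjusted p of 0.0847 and 0.0631), and CASP14 with DESeq2 (adjusted p = 0.0602). SBSN lost its call with only the compared groups fitted (edgeR adjusted p = 0.0522). CDSN and HRNR lost theirs on unfiltered log2(TPM + 1) (limma adjusted p of 0.0612 and 0.0648).

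For BBTGF against BB, 4 members were higher with TGF-β1 in JNKKO and lower in WT, with terms of 3.13 for SPRR2A, 2.16 for SPRR2D, 1.48 for CNFN and 2.36 for SCEL. CASP14 was called in JNKKO acini alone, and its term was 5.39. The other 7 positive terms were 1.69 for SPRR1B, 3.90 for SPRR3, 1.44 for LCE1C, 4.99 for A2ML1, 3.23 for KRTDAP, 3.69 for SBSN and 0.41 for DMKN. Those of SPRR3 and KRTDAP rest on 1 count in the 3 WT BBTGF libraries together, so their size depends on the prior count. On log2(TPM + 1) neither was called (limma adjusted p of 0.0847 and 0.1543). The WT BBTGF libraries also held few reads of A2ML1 and SPRR2A. The 6 negative terms were -1.63 for FLG, -1.62 for PLA2G4F, -0.65 for ABCA12, -0.76 for LYPD3, -0.48 for EVPL and -1.27 for PPL. The DMKN term was lost without JNKKO BBTGF 1 or 2 or JNKKO BB 2 or WT BBTGF 2 or WT BB 1, 2 or 3, that of KRTDAP without JNKKO BBTGF 1 or 2 or JNKKO BB 2 or 3 or WT BBTGF 1, 2 or 3 or WT BB 1 or 3, that of PLA2G4F without JNKKO BBTGF 1 or 2 or JNKKO BB 1 or 2 or WT BBTGF 1, 2 or 3 or WT BB 1 or 2 and that of SPRR3 without the third JNKKO BBTGF library.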

How the results depend on the processing

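Of 270 member differences over the 9 comparisons, 184 were called, and 139 of these kept direction and call under all 8 other settings and without each library. Among called differences, 28 lost the call without 1 library and 35 under another setting, and 18 uncalled ones became called without 1 library. A sign turned under some alternative for 29 differences, of which 27 were not called. The called ones were DMKN in BBTGF against BB in JNKKO and PLA2G4F in the interaction with TGF-β1, and the cause was not tested. On log2(TPM + 1), with the same values without the low-value filter, and on log2(TPM + 0.1) where a second value is given, the signs that turned against edgeR were 0.26 and 0.29 against -0.025 for SBSN in BB against control in WT, 0.028 and 0.059 against -0.085 for FLG in BBTGF against BB in WT, 0.019 and 0.066 against -0.11 for ASPRV1 in BBTGF against BB in WT, 0.19 and 0.19 against -0.25 for DMKN in BBTGF against BB in JNKKO, 0.074 and 0.094 against -0.15 for CDSN in BBTGF against BB in JNKKO, -0.041 and -0.027 against 0.060 for TGM1 in the interaction with BB, -0.14 and -0.14 against 0.0051 for PPL in the interaction with BB, -0.084 and -0.27 against 0.19 for ALOX12B in the interaction with TGF-β1 and 0.46 against -1.62 for PLA2G4F in the interaction with TGF-β1. On log2(TPM + 0.1) also, IVL in JNKKO against WT in control was 0.024 against -0.20. With DESeq2, SCEL in JNKKO against WT in BB was 0.0058 against -0.0054. The numbers on samples did not pair them (correlations of -0.059 to 0.053), and with the replicate number as a block, SBSN in BB against control in WT was 0.0044, A2ML1 and SPINK5 lost and ALOX12B gained a call in JNKKO against WT in BB, and no other call changed. Members higher in JNKKO against WT in BB numbered 4, but 7 without the low-count filter, 1 under each of the 3 TPM fits and 2 to 3 without 1 library. Members higher in BB against control in JNKKO numbered 1, but 2 without the filter and 2 with only the compared groups fitted. Positive interactions with BB numbered 2, but 1 on unfiltered log2(TPM + 1). Leaving out libraries 1 at a time turned the sign of 25 differences, none of them called with all libraries. In BB against control in JNKKO the ranges were -0.065 to 0.27 for ASPRV1, -0.79 to 0.049 for SCEL, -0.038 to 0.26 for SPRR1B and -0.96 to 0.12 for TGM5. In BB against control in WT the ranges were -0.48 to 0.27 for A2ML1, -1.46 to 0.0011 for ALOX12B and -0.28 to 0.57 for SBSN. In BBTGF against BB in WT the range was -0.34 to 0.24 for ASPRV1. In JNKKO against WT in BB the ranges were -0.074 to 0.38 for KRTDAP, -0.034 to 0.024 for PPL, -0.38 to 0.46 for SCEL and -0.37 to 0.17 for SPRR3. In JNKKO against WT in BBTGF the ranges were -0.062 to 0.33 for ASPRV1 and -0.42 to 1.40 for SPRR1A. In JNKKO against WT in control the ranges were -0.40 to 0.056 for ASPRV1, -0.55 to 0.57 for IVL, -0.048 to 0.012 for PPL and -0.034 to 0.87 for TGM5. In the interaction with BB the ranges were -0.79 to 0.67 for ALOX12B, -0.030 to 1.09 for IVL, -0.022 to 0.042 for PPL and -0.015 to 0.13 for TGM1. In the interaction with TGF-β1 the ranges were -0.72 to 0.65 for ALOX12B, -0.55 to 0.051 for ASPRV1 and -0.068 to 0.33 for HRNR. Depth limits the 12 tested members under 5 CPM, and SPRR3, KRTDAP, CALML5 and FLG2 held 1 to 3 counts in 1 group.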

Other observations

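Members on chromosome 1, where the SPRR, LCE and filaggrin genes lie together, were set beside those elsewhere without a test. In JNKKO against WT BBTGF acini, 5 were higher and 2 lower of 10 (median log2 1.39) on chromosome 1, and 8 were higher and 7 lower of 20 (median log2 0.45) on other chromosomes, beside 26.5% higher and 26.4% lower over all tested genes. The lower counts on chromosome 1 lie near that share. In BBTGF against BB in WT acini, 1 was higher and 8 lower of 10 (median log2 -2.22) on chromosome 1, and 2 were higher and 14 lower of 20 (median log2 -1.10) elsewhere, beside 33.4% higher and 31.8% lower over all tested genes. Within chromosome 1 the involucrin and SPRR genes and the filaggrin genes did not go one way, since IVL, SPRR1B, SPRR2A, SPRR2D and SPRR3 were higher and FLG and HRNR lower in JNKKO than in WT BBTGF acini.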
